A study of Drosophila melanogaster with 4 samples.

Results

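The regions described here are the H3K27ac clusters of the outer 2 Mb of the 4 long autosomal arms of Drosophila melanogaster, taken at the telomere end of each assembled arm. Positions are on FlyBase release 5, the build named in the file headers. A cluster is a region of significant enrichment in the authors' combined list, made from both ChIP replicates. It belongs to a telomere end when its midpoint lies within 2 Mb of position 1 on 2L or 3L, or within 2 Mb of the last base on 2R or 3R. By this rule 562 of 7474 clusters (7.52%) were members, with 130 on 2L, 136 on 2R, 154 on 3L and 142 on 3R. None of the 562 crossed the limit of 2 Mb. They are compared below with the 4874 clusters in the interior of the same arms, which leaves out 2 Mb at either end, and in places with the 387 clusters of the 2 Mb at the centromere ends.

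H3K27ac is acetylation of lysine 27 of histone H3. In flies it is deposited by the CBP acetyltransferase, marks active promoters and enhancers, and cannot share a histone tail position with the Polycomb mark H3K27me3. Fly chromosomes end in arrays of telomeric retrotransposons (HeT-A, TART and TAHRE) in place of a telomerase-made repeat, and next to these lie repeated telomere-associated sequences. Transgenes that land in or beside such sequence are often silenced, an effect called telomere position effect. Further inward lies ordinary gene-bearing euchromatin.

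All material was wild-type chromatin from embryos of the Oregon-R strain (Oregon-R-modENCODE) aged 14 to 16 h, crosslinked with 1.8% formaldehyde. There were 2 libraries precipitated with an H3K27ac antibody, replicates 1 and 2, and 2 input libraries, each tied by the labels to a single ChIP list. Whole embryos mix all tissues, so a cluster may be acetylated in many cells or strongly in few. The lists carry a score for each cluster but no read counts, so the sequencing depth is unknown. The labels do not state whether separate embryo collections were used for the replicates, so their spread may be technical.

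Acetylation covered more of the telomere ends than of the arm interiors, with more clusters per Mb and shorter median gaps, while typical width and score differed by no more than the spread between replicates. In replicate 1, clusters covered 27.8% of the telomere ends and 21.8% of the interiors. In replicate 2 they covered 29.1% of the telomere ends and 22.9% of the interiors. The mean was 28.4 ± 0.951% at the telomere ends and 22.4 ± 0.801% in the interiors (SD, n = 2), a difference of 6.07 ± 0.150 percentage points. This SD is the spread between the 2 libraries and does not measure how the arm ends vary. By arm the mean difference was 15.7 points on 3L, 9.10 on 2L, -0.52 on 2R and -0.73 on 3R. An exact sign-flip permutation test over the libraries, two-sided, gave p = 0.5, the smallest value that 2 libraries allow, so no such comparison here can pass a threshold of 0.05. The pooled excess rested in good part on 3L: without that arm it was 2.85 points, with 2.47 in replicate 1 and 3.23 in replicate 2.

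Cluster density followed the same order. Replicate 1 held 459 clusters in the 8 Mb of telomere ends, 57.4 per Mb, against 49.7 per Mb in the interiors. Replicate 2 held 475 clusters, 59.4 per Mb, against 51.6 per Mb in the interiors. The difference of 7.70 ± 0.0545 clusters per Mb (SD, n = 2) had the same direction in both replicates, and was 3.98 per Mb without 3L. Neighbouring clusters lay nearer to each other. The median gap was 4513 bp at the telomere ends against 5030 bp in the interiors in replicate 1, and 4424 against 4846 bp in replicate 2. The median gap difference was -469.5 ± 67.2 bp (SD, n = 2), but it shrank to -281 bp without 2L and to -204.75 bp without 3L. In the combined list the lower quartile of gaps was 1334 bp at the telomere ends and 1232 bp in the interiors, whereas the upper quartile was 8541.5 bp at the telomere ends and 11226 bp in the interiors. The larger of these differences was among the long gaps. Gaps under 1 kb made up 19.5% of those at the telomere ends and 21.8% of those in the interiors of the combined list. The replicate lists went the other way for short gaps. Their lower quartile was 1496 bp at the telomere ends against 1667 bp in the interiors in replicate 1, and 1574.5 against 1660.25 bp in replicate 2. Gaps under 1 kb made up 18.2% against 18.1% in replicate 1 and 17.6% against 17.1% in replicate 2.

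Typical width and score did not differ beyond the replicate spread. Median widths in replicate 1 were 3071 bp at the telomere ends and 2856 bp in the interiors, while those of replicate 2 were 2906 bp at the telomere ends and 2948 bp in the interiors. The replicates therefore gave opposite signs, and the mean difference of 86.5 bp was smaller than its SD of 182 bp. The score is the authors' own value for each cluster, higher for stronger enrichment, on a scale that the sources used here do not state. Its median in replicate 1 was 0.71 at the telomere ends and 0.66 in the interiors, and in replicate 2 it was 0.72 at both. The mean difference of 0.03 ± 0.03 (SD, n = 2) did not exceed the spread between replicates, and it changed sign without 3L. Members of the combined list had median values of 2850 bp for width and 0.50 for score, against 2856 bp and 0.49 in the interiors. Wide members had high scores, with a Spearman rho across the 562 clusters of 0.852, against 0.830 across the 4874 interior clusters. Clusters are not independent replicates, and width and score come from the same signal.

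**Figure D1:**
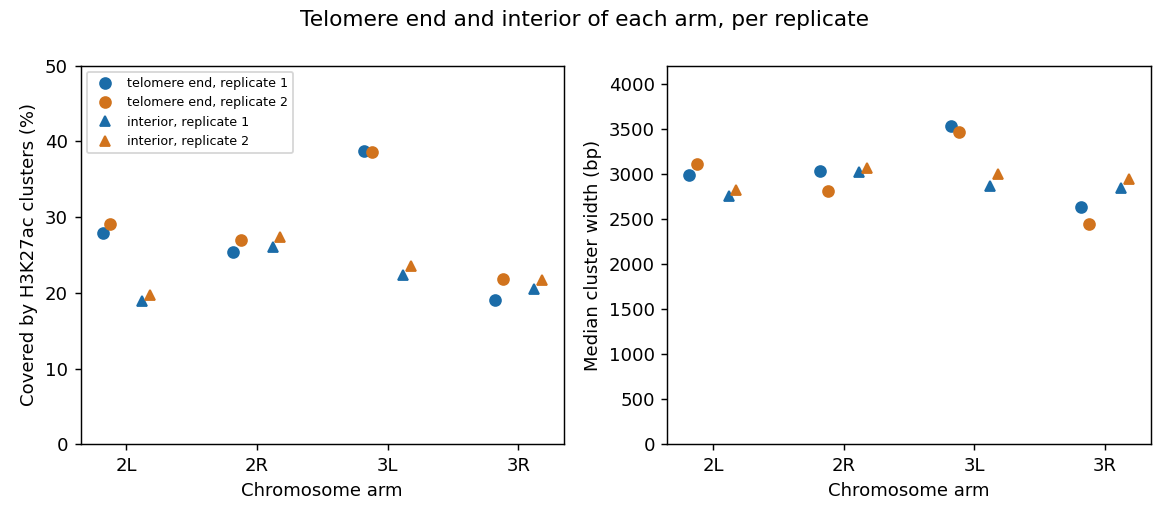
Covered share (left, %) and median cluster width (right, bp) of each arm, with circles for the telomere end, triangles for the interior, blue for replicate 1 and orange for replicate 2. On 2L and 3L both circles lie above both triangles in covered share, while on 2R and 3R the circles lie at or near the level of the triangles.

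The excess was not shared by all arms. The telomere end of 3L was covered at 38.8% in replicate 1 and 38.6% in replicate 2, against 22.3% and 23.6% in its interior, 15.7 ± 1.01 points more. On 2L the telomere end was covered at 27.9% in replicate 1 and 29.1% in replicate 2, against 19.0% and 19.8% in the interior, 9.10 ± 0.264 points more. The telomere end of 2R, at 25.385% in replicate 1 and 27.004% in replicate 2, lay just under its interior at 26.1% and 27.3%, a difference of -0.52 ± 0.259 points. This sign depended on the choice of interior: with the centromere end counted in, the difference was 0.413 points in replicate 1 and 1.18 in replicate 2. On 3R the replicates disagreed in direction, with -1.51 points in replicate 1 and 0.0402 in replicate 2. The left arms thus stood above their interiors in both libraries by 9 points or more on average, and the right arms lay within 2 points of theirs on either side. Differences between arms were not tested, and 2 libraries would allow no p below 0.5. The plot of covered share and width by arm shows these values.

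The arm ends also differed in the make-up of their clusters. Median widths of combined clusters were 3776 bp on 3L, 2944 bp on 2L, 2865 bp on 2R and 2251 bp on 3R, and the order of median scores was the same, at 0.61, 0.52, 0.47 and 0.41. The 3L end therefore had the widest and highest scoring typical cluster of the 4 ends, and 3R the narrowest and lowest. Replicate 1 (2630 bp) and replicate 2 (2448 bp) also had their narrowest typical clusters at the 3R end, against 2839 and 2937.5 bp in the 3R interior. Typical gaps on 3R were long, 6691.5 bp against 5107 bp in its interior in replicate 1 and 6877 against 5053 bp in replicate 2. On 3L the telomere end had shorter gaps than the interior in both libraries, 4151 against 4974 bp in replicate 1 and 3556.5 against 4592 bp in replicate 2.

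Distance from the telomere did not order the members of the combined list by strength. Across the 562 members, Spearman's rho between distance and score was -0.01 and between distance and width -0.03. Within single arms the rho of distance with score ran between -0.18 on 2L and 0.12 on 2R. In bins of 250 kb the median score of members ranged between 0.43 and 0.61 and the median width between 2350 and 3271 bp, with no steady rise or fall outward. In the replicate lists the rho of distance with score was -0.09 in replicate 1 and -0.08 in replicate 2. By arm it was -0.12 and -0.20 on 2L, -0.19 and -0.09 on 3L, -0.02 and 0.02 on 2R, and 0.02 in both on 3R. Their outermost bin had the highest median score of all bins, 0.78 in replicate 1 and 0.86 in replicate 2. Coverage did vary by bin. It was highest from 250 to 500 kb, at 39.7% in replicate 1 and 41.3% in replicate 2, and from 1500 to 1750 kb, at 35.0% in replicate 1 and 37.8% in replicate 2. The innermost bin, from 1750 to 2000 kb, was the least covered, at 14.2% in replicate 1 and 16.4% in replicate 2. The outer 1 Mb was covered at 31.3 ± 0.702% and the inner 1 Mb at 25.6 ± 1.20% (SD, n = 2). This difference of 5.71 points became 0.464 points without 3L and 8.82 points without 2R.

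**Figure D2:**
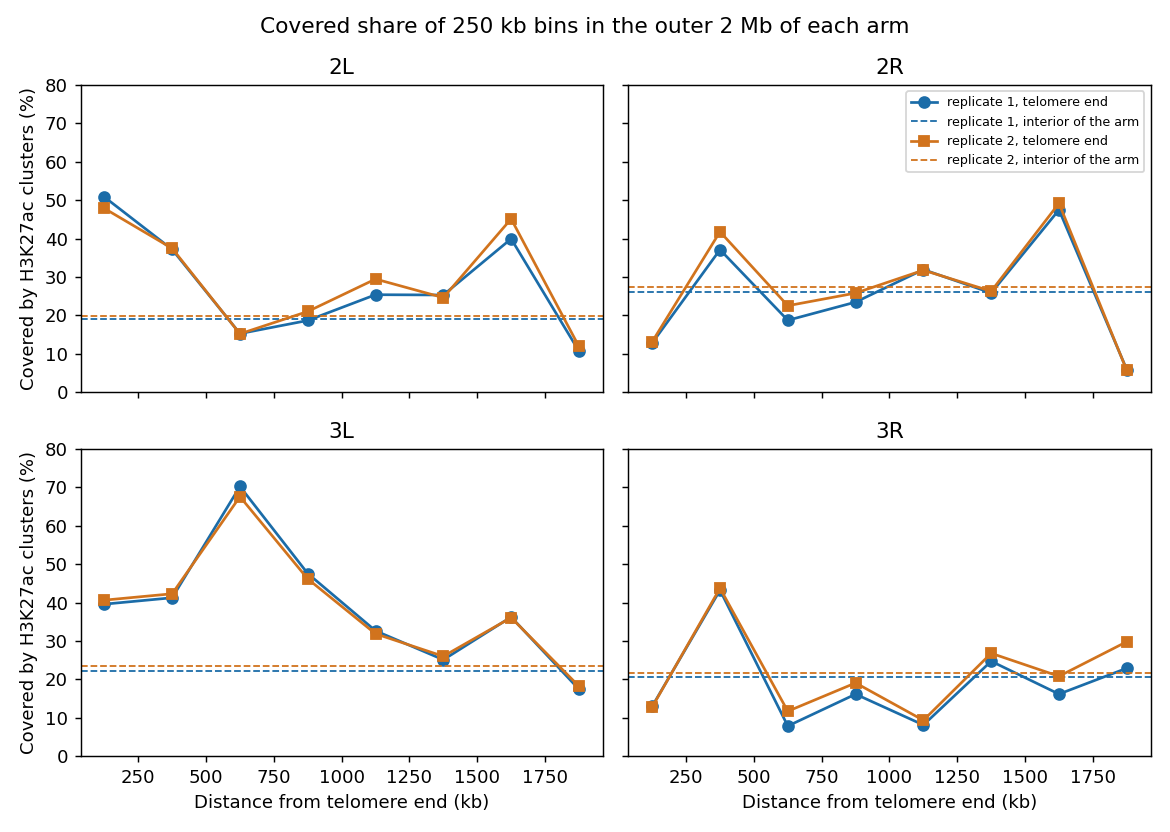
Share of each 250 kb bin covered by clusters (y axis, %) against distance from the telomere end (x axis, kb), 1 panel per arm, with replicate 1 in blue and replicate 2 in orange. Dashed lines give the covered share of the arm's interior in each replicate. The outermost bin lies above the dashed lines on 2L and 3L and below them on 2R and 3R, and the highest bin is that from 500 to 750 kb on 3L.

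The outermost 250 kb separated the left arms from the right arms. On 2L this stretch was covered at 50.8% in replicate 1 and 47.8% in replicate 2, and on 3L at 39.6% and 40.7%. On 2R it was covered at 12.8% in replicate 1 and 13.1% in replicate 2, and on 3R at 13.0% and 12.8%. Against the interior of the same arm this was 30.0 ± 2.67 points more on 2L, 17.2 ± 0.161 more on 3L, -13.8 ± 0.654 points on 2R and -8.22 ± 0.975 on 3R (SD, n = 2). The members there differed in the same sense, with medians of 3658 bp for width and 0.70 for score over the 47 clusters of the left arms, and of 2440 bp and 0.34 over the 35 clusters of the right arms. In the next 250 kb the covered shares were not split in this way, at 39.2% and 39.9% on the left arms and 40.2% and 42.8% on the right arms in replicates 1 and 2. Its members still differed in the same sense as the outermost, with medians of 3406 bp and 0.69 over 41 clusters of the left arms and 2726 bp and 0.47 over 39 clusters of the right arms. The bin width and the contrast of left with right arms were picked after the values were seen, and the contrast was not tested.

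Near the very tip the arms also differed in where the outermost cluster was called. How well reads can be placed in the sequence of the tips was not examined, so a tip without a cluster may still be acetylated. On 2L the outermost cluster started 14.0 kb from the assembled end, at 2L 14030 to 24064. It was 10.0 kb wide with a score of 2.22, and was a single cluster of 9.18 kb with score 2.27 in replicate 1 and of 9.16 kb with score 2.37 in replicate 2. This is also the highest scoring member on 2L. On 3R a cluster of 3.56 kb began 10.5 kb from the end, at 27891036 to 27894600, with a score of 0.32 and replicate scores of 0.39 and 0.43. On 3L there was no cluster in the outer 50 kb in any list, and the outermost lay at 55224 to 58882, 55.2 kb from the end, with a score of 0.79 and replicate scores of 0.78 and 0.89. On 2R the outermost combined cluster, at 21119906 to 21121640, scored 0.29 and overlapped neither replicate list, as did the next 2 inward. The outermost 2R cluster present in both replicates lay at 21092336 to 21095408, 51.3 kb from the end, with a score of 0.50 and replicate scores of 0.44 and 0.72. In the outer 50 kb, replicate clusters therefore covered 28.7 ± 5.01% on 2L, 11.5 ± 0.624% on 3R and 0.0% on 2R and 3L (SD, n = 2).

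A chain of broad domains filled part of the 3L end. From 542202 to 829836, a stretch of 288 kb, lay 10 clusters of the combined list, and 5 of the 10 were at least 20 kb wide. Clusters of the replicate lists covered 76.3% of this stretch in replicate 1 and 74.0% in replicate 2. The innermost of the chain, at 759896 to 829836, is the widest member, at 69.9 kb with a score of 1.16 and replicate scores of 1.12 and 1.34. It begins 2.12 kb after a cluster of 26.7 kb at 731102 to 757776, which has a score of 1.41 and replicate scores of 1.57 and 1.45. Farther out lie the 49.9 kb domain at 605346, the highest scoring on 3L with 2.34 and replicate scores of 2.28 and 2.42, and a 26.98 kb cluster at 542202 to 569178 with a score of 1.27. The bin from 500 to 750 kb, at 68.9 ± 1.87% (SD, n = 2), was the most covered of the 32 arm bins. The limits of the chain were set after its clusters were seen.

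Broad clusters of at least 20 kb, a limit chosen after the widths were seen, numbered 18 of the 562 members (3.20%), against 2.23% of all clusters in the combined list and 2.05% of interior clusters. In the replicate lists they were 10 of 459 (2.18%) against 1.62% in the interiors in replicate 1, and 15 of 475 (3.16%) against 1.68% in replicate 2. On 3L lay 6 of the 18, all of them in the outer 1 Mb, with 5 on 2R, 4 on 3R and 3 on 2L. All 18 overlapped clusters of both replicates, as did all 167 clusters of that width in the whole combined list. Of the 10 widest members, 4 were on 3L and 2 on each other arm. The widest on 2L, at 1385796 to 1431756, spanned 46.0 kb with a modest score of 0.88 and was split into 3 clusters in replicate 1 and 4 in replicate 2. Another broad cluster on 2L, at 1631414 to 1666146, spanned 34.7 kb with a score of 1.58. On 3R the widest was at 27521068 to 27554598, 33.5 kb with a score of 1.96 and replicate scores of 2.22 and 2.13. It lay 367 kb from the end, within the bin of highest coverage on that arm, and a cluster of 20.9 kb at 27417154 to 27438008 with a score of 2.22 lay in the same bin. On 2R the widest was at 19455996 to 19485084, 29.1 kb with a score of 1.24, as a single cluster of 28.5 kb in each replicate.

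The highest scores were found in clusters wider than most, though mostly not in the widest. All of the 10 highest scoring members were wider than 5207 bp, the upper quartile of member width. The highest score of any member was 2.60, at 2R 19757022 to 19763664, for a cluster of 6.64 kb found in both replicates with 2.53 and 2.71. Next in order were the 605346 domain of 3L, the outermost cluster of 2L and the 3R cluster at 27417154. They were followed by 2R at 20201838 to 20224362 (22.5 kb, score 2.10) and 2L at 477398 to 489118 (11.7 kb, score 2.09, with replicate scores of 1.87 and 2.42). The list of 10 highest also took in 2L at 216370 to 228770 (12.4 kb, 1.97), the widest cluster of 3R, 2L at 157492 to 176840 (19.3 kb, 1.90) and 2R at 19861642 to 19871316 (9.67 kb, 1.89). On 2L lay 4 of the 10, and 3 of these were within the outermost 250 kb. All 10 overlapped both replicate lists, 7 of them as a single cluster in each, and only 2 of the 10 were also among the 10 widest. Scores of at least 1 were reached by 97 members (17.3%), close to the 18.5% of all combined clusters and the 16.3% of interior clusters. By arm these were 25 on 2L, 26 on 2R, 31 on 3L and 15 on 3R. The limit of 1 was chosen after the scores were seen.

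**Figure D3:**
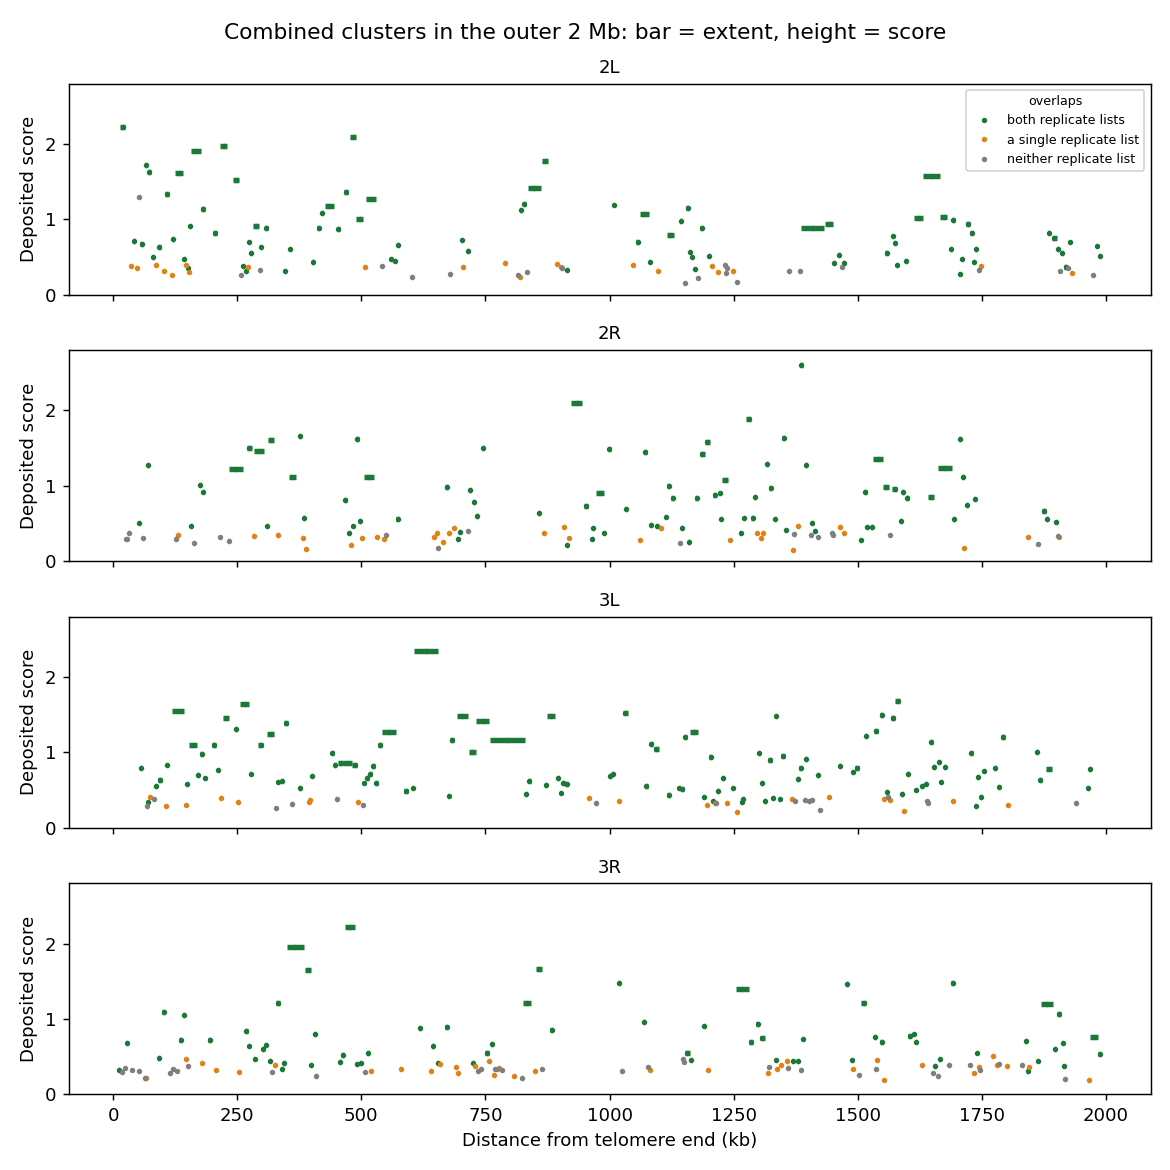
The 562 combined clusters by distance from the telomere end (x axis, kb) and deposited score (y axis), 1 panel per arm. Each bar spans the extent of a cluster, and its colour tells whether it overlaps both replicate lists (green), a single list (orange) or neither (grey). Clusters with high scores are green with 1 exception on 2L, a 1.00 kb cluster with a score of 1.30, and the outermost 250 kb of 2R and 3R holds 17 grey clusters among 35.

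Most members were present in both libraries. Of the 562 members, 360 (64.1%, exact Clopper-Pearson 95% interval 59.9 to 68.0%) overlapped clusters of both replicates by at least 1 bp, against 65.0% of all combined clusters and 65.6% of interior clusters. A further 107 overlapped a single replicate list, 40 in replicate 1 and 67 in replicate 2, where 18.5% of all combined clusters did so. The remaining 95 members (16.9%) overlapped neither list, against 16.6% of all combined clusters. Since the authors built the combined list out of these libraries, the shares describe the lists and are no independent check, and the intervals cover counting error only. The 360 members in both held 87.5% of the summed width of the members, with medians of 4346 bp for width and 0.72 for score. Those in neither had medians of 1264 bp and 0.32, and 52 of the 95 were narrower than 1300 bp, the narrowest replicate cluster.

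Presence in both replicates followed width and score closely. Among members of at least 3000 bp, 261 of 270 (96.7%) were in both, against 96.9% of interior clusters of that width. Between 1300 and 3000 bp it was 99 of 234 (42.3%), against 44.7% in the interiors. Under 1300 bp it was 0 of 58, where an exact interval allows up to 6.16%. This held for the list at large, with 0 of 449 in the interiors and 0 of 712 among all combined clusters of that width. No replicate cluster is narrower than 1300 bp, so this class is tied to the width limits of the lists and is no separate support. Among the 272 members scoring above the median of the combined list, 271 (99.6%) were in both, close to the 97.4% of all combined clusters and 99.1% of interior clusters above that median. The exception is the 2L cluster at 51592 to 52592, 1000 bp wide with a score of 1.30, which overlapped neither list. Among the 290 members at or under that median, 89 (30.7%) were in both, against 35.7% in the interiors. The lists do not give the rule by which the authors joined the replicates.

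The share in both replicates was counted for each arm end. On 3L 116 of 154 members (75.3%, 67.7 to 81.9%) were in both replicates, on 2L 87 of 130 (66.9%, 58.1 to 74.9%), on 2R 86 of 136 (63.2%, 54.5 to 71.3%) and on 3R 71 of 142 (50.0%, 41.5 to 58.5%). The order of the arms is that of their median widths, and the difference between arms was not tested. On 3R 36 members (25.4%) were in neither list and 25 were in replicate 2 alone. Counted from the replicate lists, 85 of 93 3R clusters of replicate 1 (91.4%) overlapped a replicate 2 cluster, while 79 of 104 of replicate 2 (76.0%) overlapped a replicate 1 cluster. In the 3R interior these shares were 90.7% and 84.9%. The 25 replicate 2 clusters of the 3R end without a partner had medians of 1692 bp for width and 0.50 for score, against 3331 bp and 0.75 for those with a partner. Over all 4 ends, 91.1% of replicate 1 clusters and 85.3% of replicate 2 clusters overlapped the other list, against 90.3% and 85.2% in the interiors and 88.9% and 86.1% over the whole lists. The difference of 0.383 ± 0.485 points (SD, n = 2) did not exceed the spread.

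**Figure D4:**
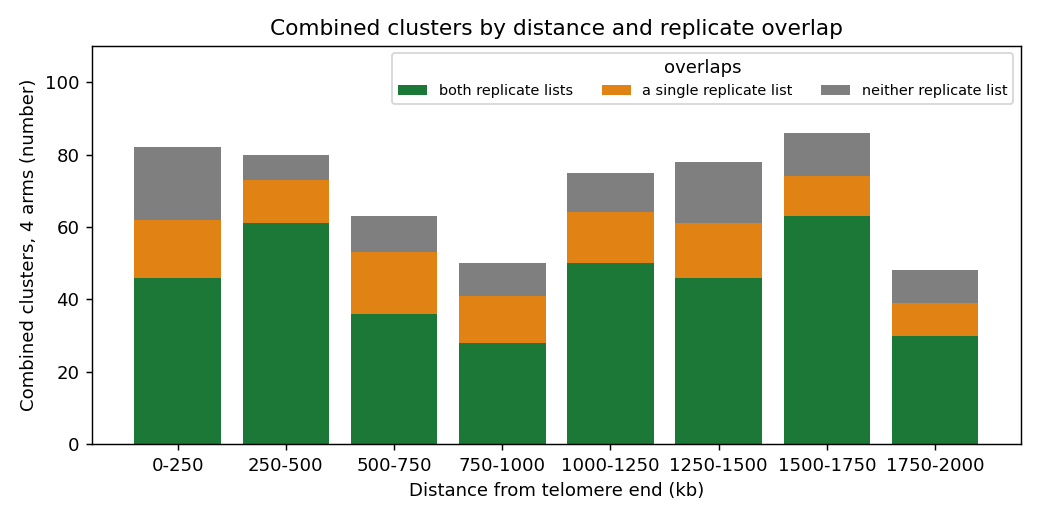
Number of combined clusters (y axis) in each 250 kb bin of distance from the telomere end (x axis), summed over the 4 arms and divided by overlap with both replicate lists, a single list or neither. The outermost bin holds 82 clusters, of which 46 overlap both lists and 20 neither, and the next holds 80, of which 61 overlap both and 7 neither.

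By distance, the share in both replicates was 56.1% (44.7 to 67.0%) in the outermost 250 kb and 76.2% (65.4 to 85.1%) in the next 250 kb. Its lowest value over the 8 bins was 56.0%, and over all combined clusters it was 65.0%. The outermost bin also had the highest share in neither list, 24.4%, against 16.6% of all combined clusters. Its clusters in neither list were mostly on the right arms, with 8 on 2R, 9 on 3R, 2 on 3L and 1 on 2L. The replicate lists themselves overlapped there about as often as elsewhere. In this bin 87.1% of replicate 1 clusters and 89.5% of replicate 2 clusters overlapped the other list. Over the whole lists these shares were 88.9% and 86.1%. On the left arms 33 of 47 outermost members (70.2%, 55.1 to 82.7%) were in both replicates, and on the right arms 13 of 35 (37.1%, 21.5 to 55.1%). These intervals treat clusters as independent, which neighbours from the same 2 libraries are not. The contrast of left with right arms was picked after the values were seen and was not tested. In the next 250 kb the shares were 75.6% on the left arms and 76.9% on the right arms, although the typical cluster there was also wider on the left arms. The part of width in these shares was not tested.

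Where a cluster of each library overlapped only the other, extent and rank were well preserved. At the telomere ends 325 pairs of replicate clusters overlapped only each other. In all, 418 replicate 1 clusters and 405 replicate 2 clusters there overlapped the other list. Those split or joined between the lists are left out of the pairs. Scores of the pairs had a Spearman rho of 0.890 and their widths of 0.905, against 0.883 and 0.875 for 2892 interior pairs. Starts lay a median of 189 bp apart and ends 154 bp apart. The score of replicate 2 was the higher in 216 pairs (66.5%). Its excess over replicate 1 had a median of 0.06 and an SD across pairs of 0.14. In the interiors it was higher in 70.0% of pairs and at the centromere ends in 49.4% of 249 pairs. By arm the rho of scores was 0.896 on 2L, 0.904 on 2R, 0.876 on 3L and 0.844 on 3R. Of the 360 members in both lists, 287 (79.7%) were a single cluster in each replicate, with a median width of 3744 bp. The other 73 were split in at least 1 replicate, had a median width of 11150 bp and reached 4 pieces. Combined clusters that were single in each replicate were wider than the mean of their replicate clusters in 282 of 287 cases, by a median of 394.5 bp.

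Coverage by bin was preserved as well. Over the 32 arm bins of 250 kb the covered share of replicate 1 and replicate 2 had a Spearman rho of 0.983, a description across bins that share libraries. Replicate 2 was higher in 22 bins and replicate 1 in 10, and the difference, replicate 2 minus replicate 1, ran between -2.97 points in the outermost bin of 2L and 6.91 points in the innermost bin of 3R. Set against the centromere ends of the same arms, the pooled telomere ends were covered more, at 28.4% against 17.7 ± 0.795% (SD, n = 2). They also had more clusters per Mb, 58.4 ± 1.41 against 42.2 ± 2.21. Both orders held on 2L, 2R and 3L in each replicate but were reversed on 3R. In replicates 1 and 2 the 3R telomere end was covered at 19.0% and 21.8%, against 30.3% and 31.5% at its centromere end. Its density was 46.5 and 52.0 clusters per Mb, against 62.0 and 62.5. The pooled median score was lower at the telomere ends, at 0.72 ± 0.01, than at the centromere ends, at 0.78 ± 0.05. The 2 Mb telomere end of X, which is no member, held 69.0 clusters per Mb in replicate 1 and 65.0 in replicate 2, against 54.8 and 53.7 in the X interior. It was covered at 34.0% and 34.1%, against 26.2% and 26.5% in that interior, so X also had more coverage at its telomere end.

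Long stretches without any cluster also occurred within the telomere ends. The widest without a cluster in any list was 134 kb on 2L between 1749840 and 1883978. On 3R it was 132 kb between 26887886 and 27019772, on 2R 109 kb between 20291064 and 20400292, and on 3L 55.5 kb between 1803631 and 1859086. Stretches of at least 50 kb numbered 6 on 2L, 5 on 2R, 5 on 3R and 2 on 3L, and 1 of those on 3L is the tip itself. On 2L and 3L the widest stretch lay in the innermost bin, from 1750 to 2000 kb, whose coverage was below that of the interior in both replicates.

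The combined list names a single region of significant depletion, and it lies in the telomere end of 2R, 1165 kb from the assembled end. It spans 1616 bp at 19980956 to 19982572 with a score of -0.02, and no replicate cluster overlaps it. It is flanked by enriched clusters present in both replicates, 1 of 7.33 kb with a score of 0.83 lying 5.80 kb before it and 1 of 2.85 kb with a score of 0.25 lying 2.29 kb after it. All enriched clusters of the list have scores above 0.

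The members just inside the limit of 2 Mb were 2.82 kb with a score of 0.52 on 2L, 1.51 kb with 0.32 on 2R, 4.16 kb with 0.78 on 3L and 5.93 kb with 0.54 on 3R. The clusters just outside were 6.19 kb with 0.71 on 2L, 2.27 kb with 0.36 on 2R, 4.98 kb with 1.03 on 3L and 10.8 kb with 1.95 on 3R.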

How the data were processed

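H3K27ac ChIP-seq lists of 2 replicates and of the replicate set were analysed. Per the submitters' processing notes, alignment used Bowtie 0.12.7. Positions are on FlyBase release 5, per the file headers. The authors deposited a score per region, but its scale, the caller and the threshold are not stated in the sources used here. Lists for the input libraries were not used here, so no input values are given. Whether the deposited clusters and scores were set against input was not examined. Positions are printed as deposited and may be off by 1 base. Width is end minus start. Membership went by midpoint, and covered shares count bases clipped to each region.

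Comparisons are paired within a library, with an exact two-sided sign-flip permutation test over 2 libraries. Overlap means at least 1 bp. Named regions were, per arm, the outermost, the widest, the highest scoring in both replicates, the widest empty stretch and the neighbours of the 2 Mb limit, plus the 10 widest and 10 highest scoring members. Members and lists were chosen with earlier results of these data known. The gene table given is of release 6 and positions were not converted, so no gene is named and no sequence is shown. Covered share, median width and median gap were tested on simulated lists of evenly spaced clusters. Scores, overlap between different lists, and correlations were not tested in this way. Alternatives were other window sizes, scores above the list median, merging under 500 bp, reciprocal overlap of 50%, and leaving out an arm or a replicate. Tools were Python 3.11.15, NumPy 2.4.6, pandas 2.3.3, SciPy 1.17.1 and Matplotlib 3.10.9.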

Additional observations from a re-analysis of the deposited data

Results flagged for a closer look

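The covered share of the telomere end, set against the interior, differed in sign between arms. It was higher by 15.7 points on 3L and 9.10 points on 2L in the mean of both replicates, and stood at -0.52 points on 2R, with the same sign in each replicate. The sign on 2R is not firm, since it was 0.798 points with the centromere end counted as interior and 0.0839 with scores above the list median. In the outermost 250 kb the difference was 30.0 points on 2L and 17.2 on 3L, against -13.8 on 2R and -8.22 on 3R, again with the same sign in each replicate. These differences between arms were not tested.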

How the results depend on the processing

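Of 107 alternative values of the 11 contrasts, 95 kept their direction. The covered share of the pooled telomere ends stayed above the interior under every alternative run, from 2.85 points without 3L to 8.93 for the outer 1 Mb, and so did 2L and 3L. On 2R the difference became 0.798 points with the centromere end counted as interior and 0.0839 with scores above the list median. On 3R it became 0.993 points for the outer 3 Mb, and leaving out a replicate gave -1.51 to 0.0402 points. Median width ran between -42.0 and 215 bp when a replicate was left out and was -40.75 bp without 3L, and the median score was -0.00542 without 3L. Sharing with the other replicate became -0.568 points for the outer 1 Mb, -0.109 after merging, -1.70 with reciprocal overlap of 50%, -0.540 without 2L and -1.15 without 3L. Keeping scores above the list median left 272 members by construction, of which 99.6% were in both replicates, and moved the median gap difference to -3130 bp. The share in both was 56.8% with reciprocal overlap of 50% and 71.4% among members of 1300 bp or more, the smallest width in the replicate lists. The cause of these changes was not tested. The outer 250 kb setting was added after the data were seen. Telomere end and interior were paired within each library in the main comparisons. Between ChIP and input, no paired analysis was possible because lists for the input libraries were not used here. Depth is unknown, so no detection limit can be given.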
